A study of Mus musculus with 6 samples.

Results

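The interleukin-17 (IL-17) receptor family was followed in the luminal epithelium of the mouse uterus, the sheet of cells facing the cavity where embryos attach. The 7 genes were taken by symbol: Il17ra, Il17rb, Il17rc, Il17rd and Il17re, which encode the 5 receptor proteins, Traf3ip2, which encodes the adaptor Act1, and Nfkbiz, which encodes the nuclear protein IkB-zeta. All 7 were among the 24964 genes of the table, and all 7 passed the minimum of a mean of 1 FPKM that left 11427 genes for testing. FPKM, a fragment count scaled to gene length and to library size, lets levels be set side by side between genes. The family was chosen by the FPKM values of its genes in these same samples, above all the high Il17rb value in Foxo1dd, so the members' differences between the genotypes are given as a description, without p-values.

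Both groups consisted of mated females carrying floxed Foxo1 alleles, from which luminal epithelium was taken by laser capture on pregnancy day 4. The 3 Foxo1dd samples came from Pgrcre/+Foxo1f/f females, in which a Cre gene at the locus of the progesterone receptor deletes Foxo1, a forkhead transcription factor. The 3 Foxo1ff samples came from Foxo1f/f females without that Cre. The females were housed to 8 weeks of age before mating, and the samples of a group are labelled as bioreplicates. The Cre acts wherever the progesterone receptor is made, in stroma and glands as well as in luminal epithelium, and the Foxo1dd females also differ from the Foxo1ff females in carrying 1 altered Pgr allele. The wider series concerns what the isoforms of the progesterone receptor do in uterine epithelium at implantation.

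IL-17 receptors work in pairs. The protein IL-17RA is the shared subunit. It joins IL-17RC to receive IL-17A and IL-17F, IL-17RB to receive IL-25, and IL-17RE to receive IL-17C. Inside the cell the paired receptors recruit Act1, which passes the signal to TRAF6 and so to NF-kB and MAP kinases. In other epithelia, such as skin, gut and airway, the pathway is known for raising antimicrobial proteins and chemokines that draw neutrophils.

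The labels held for the deleted gene. Foxo1 was at 1.72, 0.942 and 1.22 FPKM in the Foxo1dd samples, against 160.0, 118.5 and 110.8 FPKM in the Foxo1ff samples. Pgr, whose locus carries the Cre, was at 36.2, 29.9 and 28.3 FPKM in Foxo1dd, against 2.44, 1.64 and 2.02 FPKM in Foxo1ff. The cause of that Pgr difference was not tested. Summed FPKM per library was 552190 to 564628 in Foxo1dd and 613186 to 667499 in Foxo1ff. Judged from short RNA genes, the FPKM value of 1 read over 1 kb lay between 0.0101 and 0.0135. The Foxo1dd replicate 2 library stood apart, with 13995 genes above 0 against 15474 to 16062 in the other 5 libraries, and it also had the highest ribosomal RNA precursor Rn45s (40296 FPKM against 23715 to 31304). Of the 10 luminal and pan-epithelial markers all were above the minimum, and 5 were higher, 2 lower (Epcam and Cdh1) and 3 not called (7 higher and 1 lower under median-of-ratios scaling). Their summed level was 3465 to 4092 FPKM in Foxo1dd and 2078 to 2745 FPKM in Foxo1ff. Calb1, Krt8 and Krt19 added most to that difference. Their means were 539, 680 and 417 FPKM in Foxo1dd and 4.13, 280 and 47.8 FPKM in Foxo1ff. None of 7 endothelial markers reached the minimum. A level per sample cannot tell fewer cells of a type from less RNA per cell.

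Il17rb, the subunit that binds IL-25 and IL-17B, was the member that was higher in Foxo1dd. It stood at 952, 912 and 1321 FPKM in the Foxo1dd samples, against 10.8, 6.69 and 18.0 FPKM in the Foxo1ff samples. The lowest Foxo1dd value was far above the highest Foxo1ff value, so the groups were widely apart. The means were 1062 ± 226 FPKM in Foxo1dd and 11.8 ± 5.74 FPKM in Foxo1ff (SD, n = 3 each), an 89.6-fold difference. On the log2(FPKM + 1) scale the difference, Foxo1dd minus Foxo1ff, was 6.45 ± 0.29 (limma SE), the tenth highest place among the 11427 tested genes. Within each library Il17rb ranked 69, 73 and 44 among all genes in Foxo1dd, and 6777, 8133 and 4798 in Foxo1ff. Without Foxo1dd replicate 2 the log2 difference was 6.55.

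Il17rb lies on chromosome 14 (29996135 to 30008896, minus strand, mm10) with 12 blocks of exon, of which 141 bases overlap exons of Actr8 on the opposite strand. Actr8, a chromatin remodelling subunit, was at 22.5, 14.8 and 23.6 FPKM in Foxo1dd, against 29.5, 24.6 and 26.3 FPKM in Foxo1ff. These levels are far below those of Il17rb in Foxo1dd, where the ratio of Il17rb to Actr8 was 42.3 to 61.6. In Foxo1ff, where the ratio was 0.272 to 0.686, reads of the shared stretch could weigh more in the Il17rb value, and the strand setting is not given in the sources used here.

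The windows around the annotated starts are shown for the 4 members that RefSeq's promoter table (GRCm38.p6, the assembly that mm10 names) held, because the member that was higher and 3 of those that were lower can be set side by side. Each runs 5′ to 3′ on the gene's strand from 250 bases before RefSeq's start to 50 bases after it. That start is the same base as the GENCODE start used for the gene positions in Il17rb, and lies 28 bases downstream of it in Il17rc, 60 in Il17rd and 287 in Il17re, whose window is thus wholly inside the GENCODE gene. Capitals mark CG dinucleotides. Il17rb is at chr14:30008847-30009146 (minus strand), Il17re at chr6:113458521-113458820, Il17rc at chr6:113471205-113471504 and Il17rd at chr14:27038751-27039050 (plus strand).
Il17rb: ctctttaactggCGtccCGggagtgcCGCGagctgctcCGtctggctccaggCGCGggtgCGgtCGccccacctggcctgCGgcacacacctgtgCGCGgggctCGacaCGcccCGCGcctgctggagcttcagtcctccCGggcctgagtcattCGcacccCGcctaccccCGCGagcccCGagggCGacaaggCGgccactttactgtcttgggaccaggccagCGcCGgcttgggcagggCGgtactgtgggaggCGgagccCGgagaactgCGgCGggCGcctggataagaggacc
Il17re: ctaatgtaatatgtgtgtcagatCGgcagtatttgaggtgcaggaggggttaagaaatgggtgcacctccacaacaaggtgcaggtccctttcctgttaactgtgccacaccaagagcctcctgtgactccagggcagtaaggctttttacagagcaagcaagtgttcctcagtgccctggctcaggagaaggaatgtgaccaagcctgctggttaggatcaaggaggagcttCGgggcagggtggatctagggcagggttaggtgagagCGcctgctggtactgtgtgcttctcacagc
Il17rc: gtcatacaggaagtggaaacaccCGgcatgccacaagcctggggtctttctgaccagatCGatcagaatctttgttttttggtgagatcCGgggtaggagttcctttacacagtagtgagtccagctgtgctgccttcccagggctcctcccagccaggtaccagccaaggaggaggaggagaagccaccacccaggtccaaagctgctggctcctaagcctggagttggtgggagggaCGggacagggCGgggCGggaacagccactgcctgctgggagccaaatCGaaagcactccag
Il17rd: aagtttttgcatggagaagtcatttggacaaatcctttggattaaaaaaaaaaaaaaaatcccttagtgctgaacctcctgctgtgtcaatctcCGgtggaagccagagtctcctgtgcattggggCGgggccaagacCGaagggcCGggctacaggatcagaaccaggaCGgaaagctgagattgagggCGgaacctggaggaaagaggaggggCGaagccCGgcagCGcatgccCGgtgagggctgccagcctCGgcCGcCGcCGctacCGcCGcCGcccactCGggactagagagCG

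The Il17rb window was the richest of the 4 in CG, with 32 such dinucleotides and a GC content of 72.0%. Il17re had 3 (53.7% GC), Il17rc 7 (58.7% GC) and Il17rd 19 (58.3% GC), while the median of all 32851 windows of that length was 7, with 52.7% GC. In these windows 12 motifs were searched on both strands. The FOXO motif GTAAACA, present in 3.65% of all windows, and its core TAAACA (13.4%, contained in GTAAACA) were found in none of the 4. The progesterone receptor motif AGAACA (19.0% of all windows), a strict NF-kB motif (1.2%), the palindromic estrogen response element (0.07%), the ETS motif CCGGAAG (8.86%), the cyclic AMP motif TGACGTCA (1.79%), the C/EBP motif TTGCGCAA (0.183%), the E-box CACGTG (7.15%) and the TATA motif TATAAA (13.6%) were likewise in none. The AP-1 motif TGANTCA (7.81% of all windows) was found once, in Il17rb, as TGAGTCA at 104 to 98 bases before the start. A loose NF-kB motif, GGG and CC with any 5 bases between them, was present in 50.8% of all windows. It had 1 match in Il17rb, 4 in Il17rc, 4 in Il17rd and 0 in Il17re, and every strict match would also be a loose one. A match is a run of letters and not a binding site, and no match says only that these letters are not in this window.

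**Figure D1:**
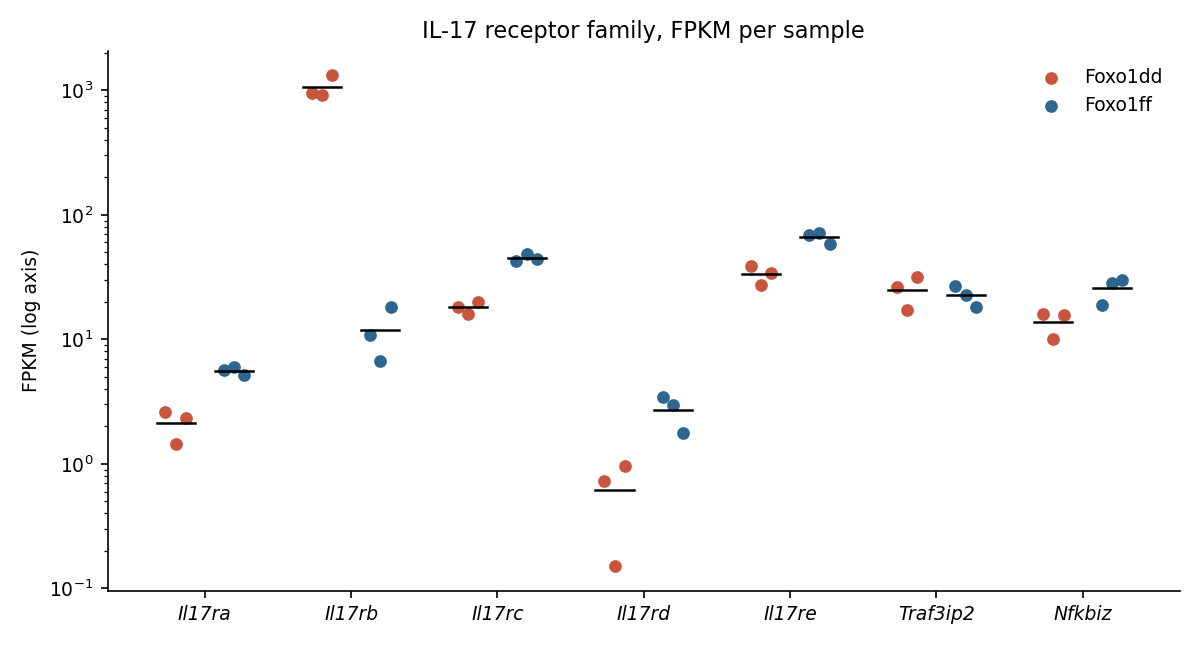
FPKM of each of the 7 genes in each sample (points, 3 per genotype, log axis) with the group mean as a black line, Foxo1dd left of Foxo1ff for each gene. Il17rb averages 1062 FPKM in Foxo1dd and 11.8 FPKM in Foxo1ff, 5 other genes are lower in Foxo1dd without overlap, and Traf3ip2 overlaps.

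The shared subunit and the other partner chains were lower in Foxo1dd. Il17ra, on chromosome 6 (120463247 to 120487559, plus strand), was at 2.63, 1.46 and 2.35 FPKM in Foxo1dd, against 5.66, 6.04 and 5.16 FPKM in Foxo1ff. Every Foxo1dd value was below every Foxo1ff value, and the mean was 2.62-fold lower, with a log2 difference of -1.09 ± 0.19 (SE). Foxo1dd replicate 2 was the lowest of the 6, and without it the log2 difference was -0.92.

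Il17rc, the partner chain for IL-17A and IL-17F, was at 18.3, 15.97 and 20.1 FPKM in Foxo1dd, against 42.3, 48.1 and 44.2 FPKM in Foxo1ff. The groups did not overlap, and the spread within each was small, at 18.1 ± 2.08 FPKM in Foxo1dd and 44.9 ± 2.98 FPKM in Foxo1ff (SD, n = 3 each). The mean was 2.48-fold lower and the log2 difference -1.27 ± 0.13 (SE), or -1.18 without Foxo1dd replicate 2.

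Il17re, the partner chain for IL-17C, was at 38.6, 27.1 and 34.2 FPKM in Foxo1dd, against 68.8, 71.5 and 58.6 FPKM in Foxo1ff. It was the most abundant member in all 3 Foxo1ff samples and second to Il17rb in all 3 Foxo1dd samples. The mean was 1.99-fold lower, with a log2 difference of -0.98 ± 0.15 (SE), or -0.84 without Foxo1dd replicate 2. Il17re (113458484 to 113470758) and Il17rc (113471427 to 113483140) are neighbours on the plus strand of chromosome 6, with 668 bases between them. Their exons do not overlap in the annotation. The ratio of Il17re to Il17rc within a sample was 2.11, 1.70 and 1.70 in Foxo1dd, against 1.63, 1.49 and 1.33 in Foxo1ff, without overlap. Both neighbours were thus lower, Il17re by a somewhat smaller factor (1.99-fold) than Il17rc (2.48-fold).

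Il17rd, also called Sef, is known mainly as an inhibitor of fibroblast growth factor (FGF) signalling and has been linked to IL-17 signalling as well. It was the lowest member in every sample, at 0.731, 0.151 and 0.956 FPKM in Foxo1dd, against 3.42, 2.95 and 1.76 FPKM in Foxo1ff. The groups did not overlap, though Foxo1dd replicate 2 was well below the other Foxo1dd samples. The mean was 4.42-fold lower. The log2 difference was -1.21 ± 0.27 (SE), or -0.98 without that library, and it was -2.17 with a pseudocount of 0.1, since a pseudocount of 1 compresses levels this low. For the annotated 10985 exonic bases, 0.151 FPKM corresponds to about 123 reads. Il17rd is on the plus strand of chromosome 14 (27038941 to 27107286), 2.89 Mb from Il17rb.

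The intracellular members did not move together. Traf3ip2, on chromosome 10 (39612934 to 39655307, plus strand), was at 26.4, 17.1 and 31.6 FPKM in Foxo1dd, against 26.7, 22.8 and 18.1 FPKM in Foxo1ff. The Foxo1dd range enclosed the Foxo1ff range. The log2 difference was 0.12 ± 0.23 (SE), but -0.06 without Foxo1dd replicate 3 and 0.36 without Foxo1dd replicate 2. Its exons share 293 bases with E130307A14Rik on the opposite strand, a gene at 2.41 to 5.25 FPKM in Foxo1dd and 1.40 to 2.27 FPKM in Foxo1ff.

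Nfkbiz encodes a nuclear IkB protein that IL-17, IL-1 and Toll-like receptor signals induce and that is needed for a subset of their target genes. On chromosome 16 (55811375 to 55838899, minus strand), it was at 15.97, 10.02 and 15.75 FPKM in Foxo1dd, against 18.8, 28.1 and 30.2 FPKM in Foxo1ff. The groups did not overlap, but the nearest values, 15.97 FPKM in Foxo1dd replicate 1 and 18.8 FPKM in Foxo1ff replicate 1, were close. The mean was 1.85-fold lower, with a log2 difference of -0.84 ± 0.22 (SE), or -0.63 without Foxo1dd replicate 2.

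In the fit across all genes, 1 member was called higher (Il17rb) and 5 were called lower (Il17ra, Il17rc, Il17rd, Il17re and Nfkbiz) at a Benjamini-Hochberg adjusted p under 0.05, with Traf3ip2 not called. Of all tested genes 56.4% were called, 22.2% higher and 34.2% lower. The groups did not overlap for 6 of the 7 members, 1 higher and 5 lower, against 64.2% of all tested genes, 25.3% higher and 39.0% lower. As the members were chosen with this contrast known, nothing is read from these counts. The median log2 difference of the 7 was -0.98, and that of all tested genes -0.15. Scaling the libraries by the median of ratios moved that median of all genes by 0.14, to -0.004. Under that scaling the log2 difference was 6.59 for Il17rb, -0.98 for Il17ra, -1.12 for Il17rc, -1.14 for Il17rd, -0.83 for Il17re, 0.27 for Traf3ip2 and -0.70 for Nfkbiz, each on the same side of 0 as with the deposited values.

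**Figure D2:**
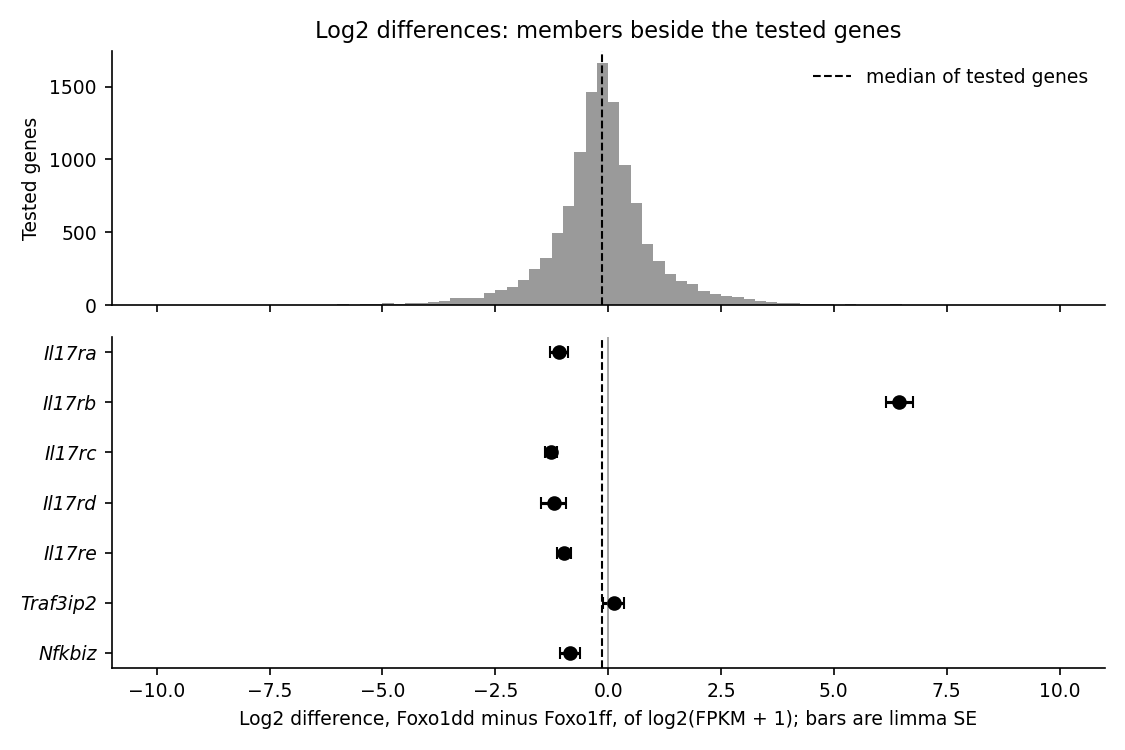
Upper panel, a histogram of the log2 difference (Foxo1dd minus Foxo1ff, of log2(FPKM + 1)) of the 11427 tested genes. Lower panel, the 7 members with their limma SE. The dashed line is the median of all tested genes, -0.15. Il17rb lies at 6.45, in the sparse right tail, while 5 members lie between -1.27 and -0.84 and Traf3ip2 lies near 0.

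The mix of receptor transcripts therefore differed between the genotypes. Summed over the 5 receptor genes, the level was 1012, 956 and 1379 FPKM in Foxo1dd, against 131, 135 and 128 FPKM in Foxo1ff. Il17rb made up 94.0%, 95.3% and 95.8% of that sum in Foxo1dd, against 8.25%, 4.95% and 14.1% in Foxo1ff. Without Il17rb the sum was 60.2, 44.7 and 57.7 FPKM in Foxo1dd, against 120.1, 128.6 and 109.6 FPKM in Foxo1ff.

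Ratios within a sample do not depend on how the libraries were scaled. The ratio of Il17rb to Il17ra, the subunit it pairs with to receive IL-25, was 362, 626 and 562 in Foxo1dd, against 1.91, 1.11 and 3.50 in Foxo1ff. The ratio of Il17rc to Il17ra was 6.94, 11.0 and 8.55 in Foxo1dd, against 7.47, 7.96 and 8.56 in Foxo1ff, and these ranges overlapped. The ratio of Il17re to Il17ra was 14.7, 18.6 and 14.6 in Foxo1dd, against 12.2, 11.8 and 11.3 in Foxo1ff, without overlap. Il17ra and Il17rc thus kept about the same proportion to each other in both genotypes, while Il17rb did not. These are ratios of FPKM, and rest on the gene lengths that the authors used.

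**Figure D3:**
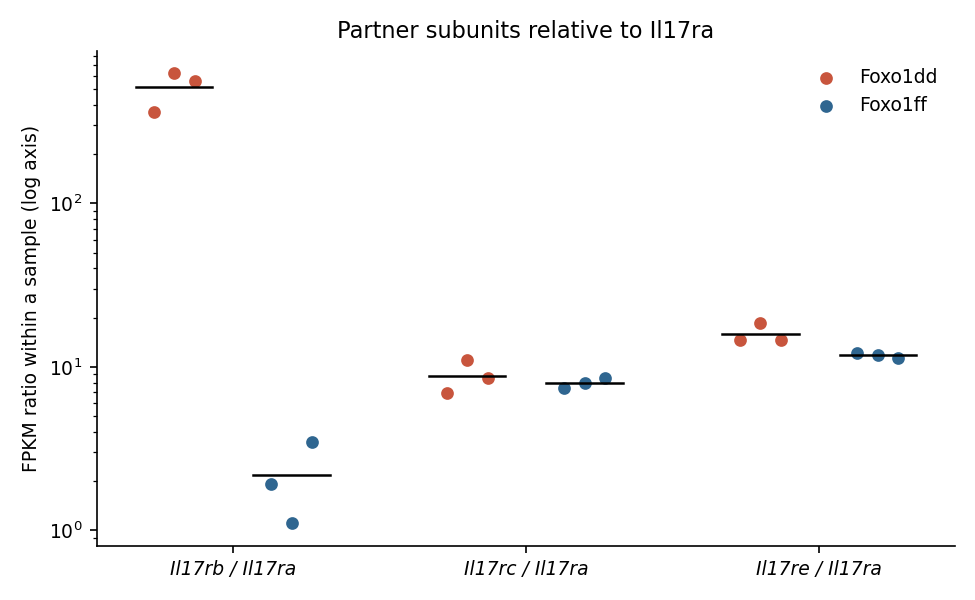
Ratio of the FPKM of each partner chain to that of the shared subunit Il17ra within each sample (points, log axis) with the group mean as a black line, Foxo1dd left of Foxo1ff. The Il17rb ratio is 362 to 626 in Foxo1dd and 1.11 to 3.50 in Foxo1ff, the Il17rc ranges overlap, and the Il17re ratios are 14.6 to 18.6 in Foxo1dd and 11.3 to 12.2 in Foxo1ff.

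The order of the levels, compared per length, also differed. In Foxo1dd it ran, from the top, Il17rb, Il17re, Traf3ip2, Il17rc, Nfkbiz, Il17ra and Il17rd in all 3 samples. Il17re and Traf3ip2, Traf3ip2 and Il17rc, and Il17rc and Nfkbiz each had overlapping ranges over the samples. In Foxo1ff the order was Il17re, Il17rc, then Nfkbiz and Traf3ip2 in either order with overlapping ranges, then Il17rb, Il17ra and Il17rd. Il17ra and Il17rd held the last places in all 6 samples.

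The genes whose log2(FPKM + 1) followed Il17rb most closely over the 6 samples were 9530014B07Rik, Alox15 and Dzank1, with Pearson's r of 0.999 each. Alox15, a lipoxygenase, was at 916, 1166 and 1400 FPKM in Foxo1dd, against 2.92, 1.63 and 7.66 FPKM in Foxo1ff. 9530014B07Rik was at 58.7, 51.8 and 69.9 FPKM in Foxo1dd, against 0.297, 0 and 1.44 FPKM in Foxo1ff. Dzank1 was at 2.74, 2.66 and 2.88 FPKM in Foxo1dd, against 0.449, 0.262 and 0.505 FPKM in Foxo1ff. The points fall into the genotypes, so this r reflects mainly that difference, with a Foxo1ff replicate order (highest in 3, lowest in 2) that all 3 genes share with Il17rb.

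Transcripts of the ligands were scarce in the captured epithelium. Il17b was listed at 0 in all 6 samples. Il17a was listed at 0 except for 0.035 FPKM in Foxo1ff replicate 2, Il17c except for 0.014 FPKM in the same sample, and Il17f except for 0.076 FPKM in Foxo1ff replicate 1. Il25, which encodes the ligand of the receptor with Il17rb, was listed at 0.024, 0 and 0.022 FPKM in Foxo1dd, and at 0 in all 3 Foxo1ff samples. For the annotated 1064 exonic bases, 0.024 and 0.022 FPKM correspond to about 1.96 and 1.99 reads. Il17d was the ligand gene that passed the minimum. It fell to 1.88, 0.940 and 1.57 FPKM in Foxo1dd, against 3.64, 4.21 and 3.75 FPKM in Foxo1ff (log2 difference -1.001 ± 0.197, SE, n = 3 per group, limma adjusted p = 0.0022).

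Most markers of lymphocytes that could supply IL-17 were also low. Of 11 T cell and innate lymphoid markers with a row, 9 were below the minimum, with Cd3d at 0 to 0.273 FPKM in Foxo1dd and 0 to 0.0910 FPKM in Foxo1ff, and Il23r at 0 in Foxo1dd and up to 0.0100 FPKM in Foxo1ff. Thy1, a surface protein of T cells and innate lymphoid cells, was tested and not called, at 1.79 to 3.46 FPKM in Foxo1dd and 1.68 to 3.31 FPKM in Foxo1ff.

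The kinases, adaptors and RNA regulators through which IL-17 receptors signal differed in both directions. Of 23 such genes, all tested, 3 were higher, 7 lower and 13 not called, with a median log2 difference of -0.25. Beside this count and those of the lists below stand the shares of all tested genes, 22.2% higher and 34.2% lower. Under median-of-ratios scaling 6 were higher and 5 lower, and without Foxo1ff replicate 2 the lower count was 4, so the balance of directions is not firm. Cebpb, a transcription factor that cooperates with NF-kB at IL-17 target genes, fell to 35.4 ± 0.704 FPKM in Foxo1dd, against 84.4 ± 12.4 FPKM in Foxo1ff (SD, n = 3 each; log2 difference -1.22 ± 0.13, SE; limma adjusted p = 5.91e-05). Traf3, known to restrain IL-17 receptor signalling, fell to 4.02 ± 0.301 FPKM in Foxo1dd, against 11.4 ± 1.95 FPKM in Foxo1ff (log2 difference -1.29, limma adjusted p = 0.000161). Usp25, a deubiquitinase that also restrains the pathway, rose to 29.8 ± 5.40 FPKM in Foxo1dd, against 15.4 ± 1.67 FPKM in Foxo1ff (log2 difference 0.90, limma adjusted p = 0.00136). Fbxw11, a ubiquitin ligase subunit, and Srsf1, a splicing factor, fell 1.78-fold and 1.42-fold. Traf6, the ligase that Act1 recruits and named after its values had been seen, was at 9.32 ± 1.26 FPKM in Foxo1dd and 11.8 ± 1.53 FPKM in Foxo1ff and was not called (limma adjusted p = 0.122). Cebpb overlaps antisense exons of Tmem189, at 53.6 to 59.5 FPKM in Foxo1dd and 60.9 to 69.6 FPKM in Foxo1ff, and Srsf1 those of Gm11508, so their values are less certain.

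The NF-kB and IkB genes split evenly. Of 10 genes 9 were tested, and 3 were higher, 3 lower and 3 not called (4 higher and 2 lower under median-of-ratios scaling, and 1 lower without Foxo1ff replicate 2). Bcl3, a nuclear IkB protein like IkB-zeta, rose to 41.0, 41.6 and 37.5 FPKM in Foxo1dd, against 15.6, 15.8 and 20.3 FPKM in Foxo1ff (log2 difference 1.18 ± 0.14, SE, n = 3 per group, limma adjusted p = 9.95e-05). It thus went the other way from Nfkbiz, though its exons overlap the antisense gene Gm16175. Nfkbia, the cytoplasmic inhibitor IkB-alpha and itself an NF-kB target, rose 2.40-fold to 173 ± 74.8 FPKM in Foxo1dd, against 72.1 ± 11.7 FPKM in Foxo1ff (limma adjusted p = 0.00691). Nfkbie, the inhibitor IkB-epsilon, fell to 0.171 ± 0.0367 FPKM in Foxo1dd, against 2.21 ± 0.374 FPKM in Foxo1ff (limma adjusted p = 0.000189). Nfkbie reached the minimum through its Foxo1ff values, and without the minimum its limma adjusted p was 0.000318. Rela, the p65 subunit, fell 1.86-fold (limma adjusted p = 0.00128). Rel was at 4.98, 1.92 and 12.05 FPKM in Foxo1dd, against 1.26, 1.24 and 1.01 FPKM in Foxo1ff (limma adjusted p = 0.0182), with a log2 difference of 1.49, or 0.95 without Foxo1dd replicate 3. The call was lost without Foxo1dd replicate 1 (adjusted p = 0.0554), without Foxo1ff replicate 3 (0.0525) or without the minimum on low values (0.0677).

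Most genes that IL-17 is known to raise in other epithelia were not detected or were very low. Of 35 such genes 28 were below the minimum, 13 of them listed at 0 in every sample, including S100a8 and the serum amyloid genes Saa1, Saa2 and Saa3. Of the 7 tested, 4 rose, 2 fell and 1 was not called, with a median log2 difference of 1.60 (5 rose and 2 fell under median-of-ratios scaling). Without the minimum 5 genes of the list were called higher and 3 lower. Csf3, the granulocyte colony-stimulating factor, rose to 70.7, 39.6 and 69.0 FPKM in Foxo1dd, against 1.27, 0.454 and 3.00 FPKM in Foxo1ff (log2 difference 4.64 ± 0.36, SE, n = 3 per group, limma adjusted p = 8.42e-06). Lcn2, an iron-sequestering antimicrobial protein, rose to 171, 139 and 187 FPKM in Foxo1dd, against 35.7, 69.2 and 61.8 FPKM in Foxo1ff (log2 difference 1.60 ± 0.23, SE, limma adjusted p = 0.00037). Plet1, a surface protein of epithelial progenitors, rose 9.53-fold to 233 ± 30.0 FPKM in Foxo1dd, against 24.4 ± 10.5 FPKM in Foxo1ff. The antisense transcript Plet1os, which overlaps it, was at most 0.411 FPKM. The fourth that rose, named after its values had been seen, was Ptgs2, which makes prostaglandins, at 3.58, 1.96 and 10.9 FPKM in Foxo1dd and 0.548, 0.486 and 0.927 FPKM in Foxo1ff. Ptgs2 reached the minimum through its Foxo1dd values.

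The tested target genes that fell were Pigr, which carries antibodies across epithelia, and the neutrophil chemokine Cxcl5. Pigr fell to 14.6, 7.85 and 8.49 FPKM in Foxo1dd, against 32.7, 43.2 and 35.9 FPKM in Foxo1ff (log2 difference -1.80 ± 0.22, SE, limma adjusted p = 0.000128). Cxcl5 fell to 2.71, 6.20 and 1.69 FPKM in Foxo1dd, against 8.55, 21.9 and 18.0 FPKM in Foxo1ff (log2 difference -1.95 ± 0.40, SE, limma adjusted p = 0.00284). For both the groups were apart in every sample. Below the minimum, and named after their values had been seen, Ccl20 and Defb3 did not overlap either, in opposite directions. Ccl20 was at 0.226, 0 and 0.059 FPKM in Foxo1dd, against 2.15, 1.39 and 0.724 FPKM in Foxo1ff. Defb3 was at 0.523, 1.85 and 3.14 FPKM in Foxo1dd, against 0.104, 0 and 0.075 FPKM in Foxo1ff. Muc5ac was also lower without overlap, at no more than 0.065 FPKM. Of 10 neutrophil markers 9 were below the minimum and 1, Ly6g, was called higher, at 1.10, 4.37 and 1.89 FPKM in Foxo1dd, against 0, 0.0990 and 0.262 FPKM in Foxo1ff (log2 difference 1.52 ± 0.33, SE, limma adjusted p = 0.00358). Ly6g reached the minimum through its Foxo1dd values. Mpo went the other way, at 0 in each Foxo1dd sample, against 0.392, 0.51 and 0.446 FPKM in Foxo1ff. Of the 10 markers 4 were listed at 0 in every sample. The receptor of the Csf3 product, Csf3r, was at 0 to 0.0410 FPKM in Foxo1dd and 0 to 0.0550 FPKM in Foxo1ff. The neutrophil list summed to 1.90 to 5.09 FPKM in Foxo1dd and 0.409 to 0.906 FPKM in Foxo1ff, nearly all of it Ly6g and Prtn3 in Foxo1dd, and its part in these results was not tested.

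IL-1 and Toll-like receptor signals converge with IL-17 on Nfkbiz. Of 17 genes of that group 13 were tested, and 6 rose, 5 fell and 2 were not called, with a median log2 difference of 0.32. The lower count was 3 under median-of-ratios scaling and on leaving out Foxo1dd replicate 2, Foxo1ff replicate 1 or Foxo1ff replicate 2. Myd88, an adaptor of most of these receptors, rose to 276, 341 and 409 FPKM in Foxo1dd, against 33.9, 33.3 and 33.8 FPKM in Foxo1ff (log2 difference 3.29 ± 0.15, SE, n = 3 per group, limma adjusted p = 5.80e-07). Its exons share 290 bases with Acaa1a on the opposite strand, at 65.4 to 97.7 FPKM in Foxo1dd and 43.0 to 50.7 FPKM in Foxo1ff. Il1r1, the IL-1 receptor, rose to 68.6, 17.3 and 28.8 FPKM in Foxo1dd, against 0.788, 0.153 and 1.10 FPKM in Foxo1ff (log2 difference 4.36 ± 0.44, SE, limma adjusted p = 3.87e-05). Il18r1, an IL-18 receptor chain, rose 15.6-fold to 5.46 ± 1.41 FPKM in Foxo1dd, against 0.349 ± 0.173 FPKM in Foxo1ff. Among those that rose, Il1r1, Il18r1 and Il1rl2 reached the minimum through their Foxo1dd values, the last named after its values had been seen. Without the minimum the limma adjusted p was 0.00128 for Il1r1 and 0.000585 for Il18r1. Tlr4, the receptor for bacterial lipopolysaccharide, and the kinase gene Irak2 fell 3.48-fold and 3.64-fold, although Irak2 overlaps exons of Gm43963 on the opposite strand. Macrophage markers, which share Toll-like receptors, were 5 lower and 2 higher of 7 tested. They summed to 142 to 178 FPKM in Foxo1dd and 96.8 to 113 FPKM in Foxo1ff, most of it Cd14, and their part was not tested.

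Il17rd belongs to a set of feedback genes that FGF and ERK signals are known to induce. Of 8 other such genes 7 were tested, and 1 rose, 3 fell and 3 were not called, with a median log2 difference of -0.32. The counts were 2 and 2 under median-of-ratios scaling. Without Foxo1ff replicate 1 they were 2 higher and 1 lower, without Foxo1ff replicate 2 0 higher and 1 lower, and without Foxo1ff replicate 3 0 higher. Like Il17rd, Spry4 and Spred1, which damp receptor tyrosine kinase signals, were lower. Spry4 fell to 0.401, 0.141 and 0.431 FPKM in Foxo1dd, against 2.04, 2.26 and 1.54 FPKM in Foxo1ff (log2 difference -1.15 ± 0.20, SE, limma adjusted p = 0.00113). Both Il17rd and Spry4 reached the minimum through their Foxo1ff values. Without the minimum the limma adjusted p of Spry4 was 0.00166. Spred1 fell 2.01-fold to 18.1 ± 4.48 FPKM in Foxo1dd, against 36.4 ± 2.23 FPKM in Foxo1ff (SD, n = 3 each; limma adjusted p = 0.000948). Spry2 rose 1.51-fold (limma adjusted p = 0.0176), a call lost without Foxo1ff replicate 2 (adjusted p = 0.0556) or 3 (0.0546). Dusp6, an ERK phosphatase, was at 24.3, 46.1 and 25.97 FPKM in Foxo1dd, against 54.2, 51.8 and 43.9 FPKM in Foxo1ff, and these ranges overlapped. It passed the test (limma adjusted p = 0.0292) but not under median-of-ratios scaling (0.118), without the minimum (0.0787) or on leaving out any sample other than Foxo1dd replicate 2 or Foxo1ff replicate 3 (0.0818 to 0.113). Etv5 was not called (limma adjusted p = 0.110), and was called higher under median-of-ratios scaling (0.0341) and without Foxo1ff replicate 1 (0.0209). The gene below the minimum, named after its values had been seen, was Etv4. It was listed at 0 in each Foxo1dd sample, against 1.92, 1.51 and 0.995 FPKM in Foxo1ff.

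**Figure D4:**
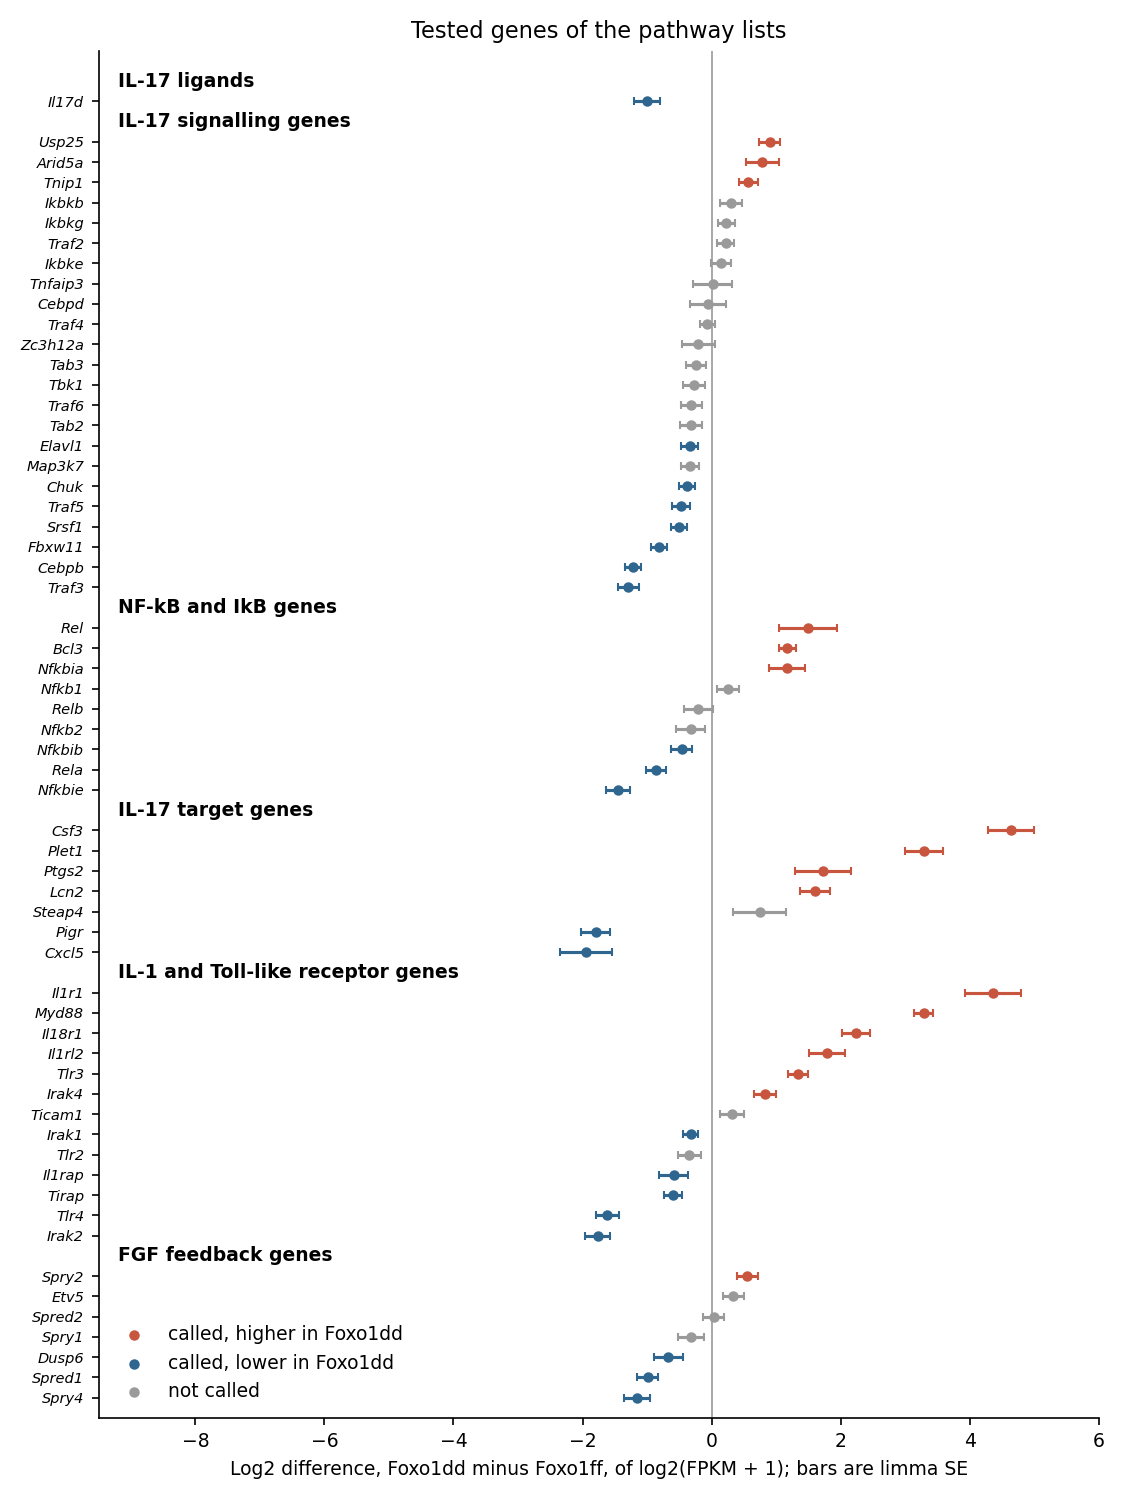
Log2 difference (Foxo1dd minus Foxo1ff, of log2(FPKM + 1)) with limma SE for each tested gene of the pathway lists, sorted within a list. Colours mark genes called higher, called lower or not called. The IL-17 signalling genes lie between -1.29 and 0.90, while the target and receptor lists reach 4.64 for Csf3 and 4.36 for Il1r1.

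Markers of other cell types differed in part between the genotypes. Of the 8 glandular markers, the 4 that passed the minimum were all called, with 3 lower and 1 higher. Each of these 4 reached the minimum through 1 group, Lif through Foxo1dd and Spink1, Prss28 and Prss29 through Foxo1ff. Their calls therefore follow in part from the minimum. The list summed to 1.21 to 7.11 FPKM in Foxo1dd and 52.0 to 210.0 FPKM in Foxo1ff. Spink1 was at 0 to 0.307 FPKM in Foxo1dd and, as most of the sum there, at 44.2 to 178 FPKM in Foxo1ff, while the gland regulator Foxa2 was at 0.399 to 0.908 FPKM in Foxo1dd and 0.643 to 1.36 FPKM in Foxo1ff. Stroma markers were 2 higher and 6 not called of 8 tested, and summed to 37.2 to 53.5 FPKM in Foxo1dd and 34.9 to 39.0 FPKM in Foxo1ff. Smooth muscle markers summed to 5.34 to 7.01 FPKM in Foxo1dd and 3.39 to 5.92 FPKM in Foxo1ff, and endothelial markers to 1.79 to 3.79 FPKM in Foxo1dd and 1.36 to 1.47 FPKM in Foxo1ff. The part of other cell types in the members' values was not tested.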

How the data were processed

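RNA-seq of laser-captured luminal epithelium was deposited as a table of FPKM values, computed by the authors for 24964 genes in 6 samples. Per the submitters' processing notes, the build was mm10 and the tools included the aligner STAR (2.5.2b), the read counter featureCounts (1.5.0-p1), DESeq2 (1.12.4) and edgeR (3.28.0), with no role or order stated. Annotation, gene lengths and strand setting: not given in the sources used here. Symbols were used as deposited, with Il36rn matched to its older symbol Il1f5. Trac and Trdc of the marker lists had no row under those symbols. The level of 1 gene of the T cell and innate lymphoid list, and the sum of that list, are not reported here.

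The 11427 genes whose mean over the 6 samples reached 1 FPKM entered limma 3.58.1 (R 4.3.3; eBayes with trend, genotype as the only term) on the log2(FPKM + 1) scale. A call is an adjusted p (Benjamini-Hochberg, over all of them) below 0.05. The minimum is a mean over both genotypes, so a gene could pass it through a single group, as Il17rd and several genes of the lists did. A call of such a gene follows in part from the minimum. The pseudocount understates changes of low genes. Folds are ratios of mean FPKM. An exact permutation test of 3 against 3 cannot go below p = 0.1 and was not used. The labels say no more of the bioreplicates, so p-values rest on the spread among these samples, which may be technical.

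Depth was read from miRNA and snoRNA genes with RefSeq lengths, whose values below 12 reads step in whole multiples of 1 read. The largest step was used that put 80% or more within 0.05 of a whole number. It gave 88.5% to 100.0% whole values, over only 26 genes in Foxo1dd replicate 2, where it is least certain. Positions are from GENCODE M21 (GRCm38), and promoter windows from RefSeq (GRCm38.p6).

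The members and the 6 pathway and 8 marker lists were chosen with earlier results of these data known. In each list except the ligands, up to 5 tested genes with the smallest p were named, along with every ligand gene and the 3 genes most correlated with the member of largest difference. Genes outside this rule are marked, apart from Foxo1 and Pgr, given for the genotypes, and those given for levels of markers or overlapping genes. Alternatives were a pseudocount of 0.1, no filter, a minimum of 5 FPKM, median-of-ratios scaling, a replicate block and leaving out each sample.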

Additional observations from a re-analysis of the deposited data

How the results depend on the processing

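Il17rb stayed between 6.13 and 6.78 on the log2 scale over its 11 alternatives, and Il17ra, Il17rc, Il17rd, Il17re and Nfkbiz stayed below 0 in each alternative that kept them. At a pseudocount of 0.1 the log2 difference was -1.39 for Il17ra and -2.17 for Il17rd. Across all tested genes, 2533 were higher and 3912 lower. Leaving out single samples gave 2134 to 2714 higher and 3050 to 3751 lower, and median-of-ratios scaling 3195 and 3293, so the higher share of calls was 49.2% in place of 39.3%. At a minimum of 5 FPKM, 3 members and 0 ligand genes were called lower, because Il17ra, Il17rd and Il17d no longer entered the fit. Under median-of-ratios scaling 6 signalling genes were higher, 3 IL-1 and Toll-like receptor genes lower and 2 FGF feedback genes higher. The cause was not tested. On leaving out single samples, the calls were 1 higher and 5 lower among the members throughout, 2 to 3 higher and 4 to 7 lower for signalling genes, 2 to 3 and 1 to 3 for NF-kB and IkB genes, 4 to 5 and 2 for target genes, 6 and 3 to 4 for IL-1 and Toll-like receptor genes, and 0 to 2 and 1 to 3 for FGF feedback genes.

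The labels do not say whether the bioreplicate numbers pair the samples. Deviations of same-numbered samples correlated at 0.12, 0.11 and -0.13 across genes, and not every sample correlated best with its own number. These are deviations from means of only 3 samples, so they cannot decide whether samples were paired. With the number as a replicate block, 2417 genes were higher and 3724 lower, 1 member was higher and 5 lower, and 3 IL-1 and Toll-like receptor genes were lower, in place of 5. The other list counts stayed within 1.5 times. With 3 samples a group and levels under 1 FPKM resting on few reads in short genes, differences among the lowest genes are poorly resolved.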
